A study of Mus musculus with 4 samples.

Results

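The 37 genes described here make up the core machinery of macroautophagy, with the ATG4 proteases among them, and were chosen by name from a table of 23258 genes. A row belonged to the set when its gene symbol was the same as a listed one; all 37 symbols were found, and all 37 passed the filter on low counts that left 16030 genes for testing. By their labels, the samples were gastric tumours of C57BL/6 mice at 20 weeks of age. The labels give 2 libraries from Mst4F/F UBCcre animals (Mst4 KO, here KO) and 2 libraries from wild-type animals (WT). UBCcre expresses the Cre recombinase from the ubiquitin C promoter, which is active in most cell types. The labelled design thus does not limit the deletion to the tumour cells. Whether the WT animals carried a floxed allele or Cre, and whether 2 libraries with the same genotype are 2 animals, is not stated in the labels. The p-values therefore cover the variation of these 4 libraries only, and that variation may be technical. The rows carry human gene symbols and human taxon identifiers (23258 of 23258) although the labels give mouse. The species and tissue of the libraries are therefore in doubt, and were not tested. Genes are named as the table names them, and KO and WT stand for the libraries so labelled.

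Autophagy encloses cytoplasm in a double membrane, the autophagosome, which fuses with the lysosome for digestion. The ULK1 kinase complex starts the process, a class III PI3-kinase complex marks the growing membrane, lipid is delivered by the ATG2 and ATG9 proteins, and a ubiquitin-like conjugation system attaches proteins of the ATG8 family (the LC3 and GABARAP proteins) to it. ATG4 cysteine proteases trim newly made ATG8 proteins before conjugation and release them from the membrane afterwards. MST4, the kinase encoded by STK26, is known to phosphorylate ATG4B and so to act on its activity at the protein level, which transcript levels do not measure.

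Library totals lay between 18613533 and 18701250 counts in KO and between 18804535 and 30505281 counts in WT, with WT replicate 1 the deepest. STK26 was at 9.07 and 7.36 CPM (the count scaled by library size) in KO, against 54.2 and 54.9 CPM in WT, so the targeted transcript followed the labels. On the deposited scale per length (read as FPKM) STK26 was at 5.22 and 5.75 in KO, against 17.23 and 17.24 in WT, a smaller fall. WT replicate 1 stood apart from the other 3 libraries: of 11959 tested genes averaging 5 CPM or more, 0.443% differed at least 2-fold within KO and 20.4% within WT. Markers of gastric glands were close to 0, with a summed level over 9 genes of 11.8 and 7.89 CPM in KO and 6.42 and 8.97 CPM in WT, and TFF2 was at 0 in every library. These markers thus did not bear out the labelled tissue, and whether a gastric tumour would keep them was not tested. The epithelial keratin gene KRT8 was abundant, at 1172 and 1383 CPM in KO and 481 and 1761 CPM in WT, but CDH1 and KRT19 did not exceed 0.51 CPM. The summed level of 6 immune markers was 17.0 and 20.4 CPM in KO, against 41.5 and 23.3 CPM in WT, and the pan-leukocyte gene PTPRC did not exceed 0.47 CPM. In bulk samples such as these, fewer cells of a type and less RNA per cell cannot be told apart.

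None of the 37 autophagy genes passed the test between KO and WT. The edgeR quasi-likelihood test on all 4 libraries called 0 of 37 at an adjusted p under 0.05, as it called 0 of all 16030 genes (0%). At an unadjusted p under 0.05 it found 1 of 37 (2.70%), against 668 of 16030 (4.17%). DESeq2 also called 0 of 37, against 39 of the 22382 genes with a p-value (0.174%). Some of these genes were given no adjusted p, so the share among genes open to a call was higher. STK26, the targeted gene, was called by DESeq2 (adjusted p = 3.03e-11) but not by edgeR (log2 fold change -2.73, SE 0.26, adjusted p = 0.834). No gene had a smaller adjusted p in the edgeR fit, so its lack of calls does not show that the members were unchanged. The fitted log2 fold change of KO over WT was negative for 26 members and positive for 11, with a median of -0.24, where the median over all tested genes was -0.01. Both KO values lay below both WT values for 14 members (37.8%), against 19.1% of all tested genes, and above both for 3 (8.11%), against 18.3%.

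WT replicate 1 was the extreme library for most members. It was the highest of the 4 libraries for 22 members (59.5%, against 40.7% of all tested genes) and the lowest for 11 (29.7%, against 39.8%). It lay at least 2-fold above the mean of the other 3 libraries for 6 members (16.2%, against 13.6%) and at least 2-fold below it for 1 (2.70%, against 9.49%). The other 3 libraries were close together: no member differed 2-fold between the KO mean and WT replicate 2, where 1.33% of genes averaging 5 CPM or more did. The median absolute log2 difference was 0.16 in both sets, against 0.14 between the 2 KO libraries. Without WT replicate 1 the median log2 fold change of the members was -0.07 and 1 of 37 was called (2.70%), against 1065 of 16474 genes (6.46%); the call was in the lower direction, which 3.93% of genes shared. That fit takes its spread from the KO libraries alone. Without WT replicate 2, which leaves WT replicate 1 against KO, it was 24 of 37 (64.9%), against 8702 of 16975 genes (51.3%). Of those 24, 7 were higher (18.9% of members, against 25.2% of genes) and 17 lower (45.9%, against 26.1%).

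**Figure D1:**
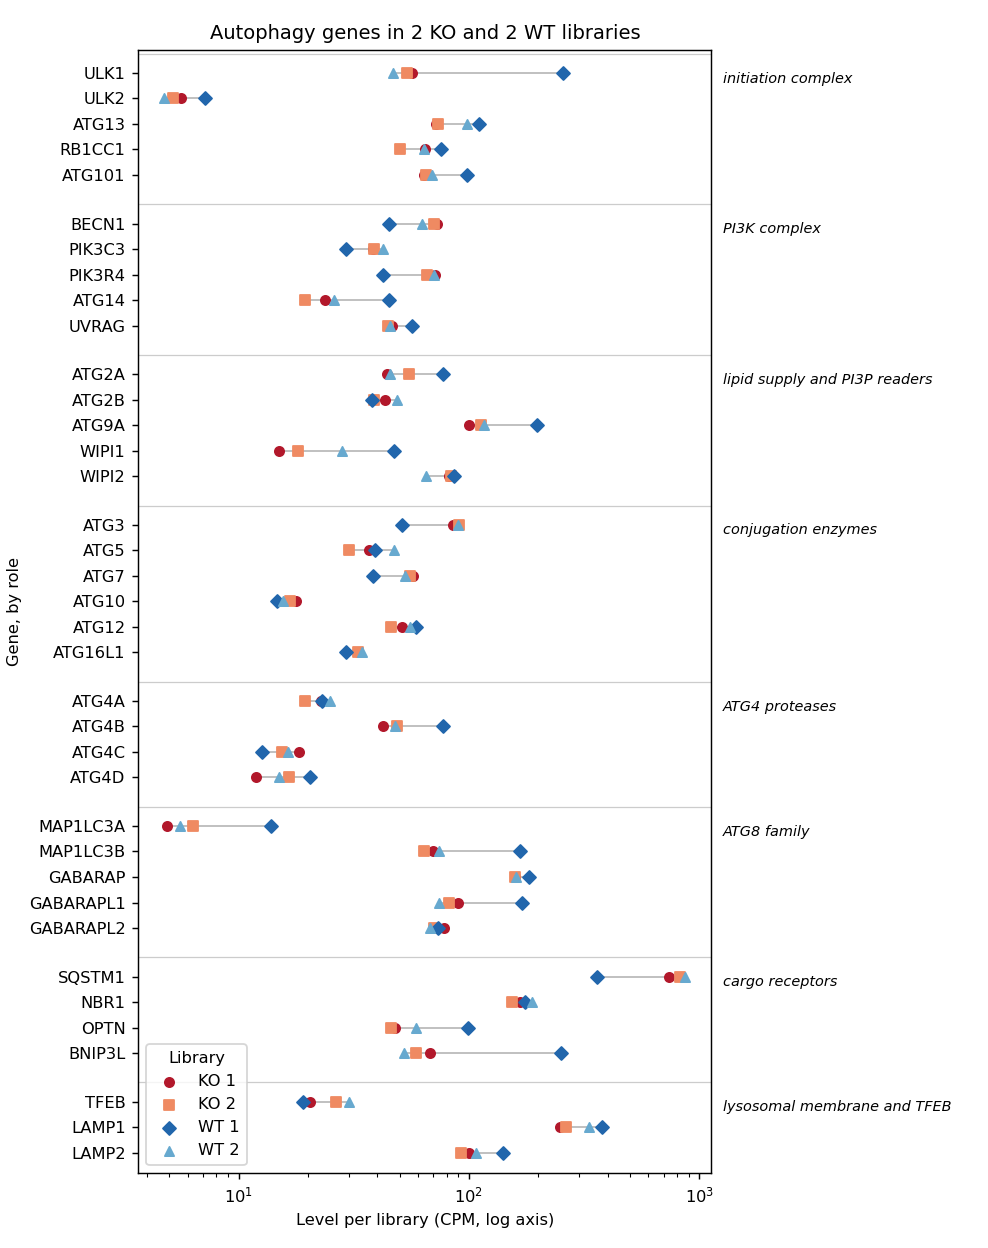
Level of each of the 37 autophagy genes in CPM (log axis) in KO replicates 1 and 2 and WT replicates 1 and 2, grouped by role; each point is 1 library and the grey line spans the 4 values. WT 1 stands far to the right for ULK1 and BNIP3L (257 and 251 CPM) and far to the left for SQSTM1 (361 CPM), while the other 3 libraries lie close together.

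None of the 4 ATG4 protease genes passed the test between genotypes. ATG4B, the member with the broadest activity on ATG8 proteins, was at 42.3 and 48.5 CPM in KO, against 76.9 and 47.8 CPM in WT. The KO values bracketed that of WT replicate 2, and only WT replicate 1 was higher. Its log2 fold change was -0.46 (SE 0.31, edgeR adjusted p = 0.834), and -0.07 (SE 0.17, adjusted p = 0.914) without WT replicate 1. In FPKM ATG4B was at 15.6 and 17.0 in KO, against 18.8 and 18.9 in WT, without overlap.

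The scales disagreed on ATG4B in WT replicate 1, which was 1.66 times the mean of the others in CPM but level with WT replicate 2 in FPKM. They also differed on WT replicate 2, which lay between the KO values in CPM but above both in FPKM. The gene length implied by a count and its FPKM (the count divided by FPKM and by the library total) was 2.79 and 2.93 kb in KO, against 3.94 and 2.49 kb in WT. For STK26, which is not a member, it was 1.78 and 1.31 kb in KO, against 3.03 and 3.13 kb in WT. After each library's median was divided out, the largest of the 4 implied lengths exceeded the smallest 1.59 times for ATG4B. This ratio passed 1.2 for 7 of 37 members (18.9%) and for 18.5% of genes averaging 5 CPM or more, and its median was 1.07 in each set. MAP1LC3A had the widest ratio among members, at 1.73, followed by ATG4B, WIPI1 (1.40), LAMP2 (1.30), TFEB (1.27), ATG2B (1.23) and MAP1LC3B (1.21). How the deposited values were assigned to transcripts of different length is not given in the sources used here, and its part in these ratios was not tested.

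Fitted differences of the other ATG4 genes were smaller than their standard errors in the fit of all 4 libraries. ATG4A, which acts mainly on the GABARAP proteins, was at 22.7 and 19.4 CPM in KO, against 23.1 and 24.9 CPM in WT (log2 fold change -0.19, SE 0.24). The KO values lay just below both WT values, but by less than the spread between the KO libraries. ATG4C was at 18.3 and 15.4 CPM in KO, against 12.7 and 16.4 CPM in WT (log2 fold change 0.21, SE 0.28). ATG4D was at 11.9 and 16.5 CPM in KO, against 20.3 and 14.9 CPM in WT (log2 fold change -0.31, SE 0.32). For both of these genes the genotypes overlapped in CPM. In FPKM ATG4C was at 6.10 and 5.45 in KO, against 4.13 and 5.23 in WT, without overlap, whereas ATG4D overlapped. Without WT replicate 1 the log2 fold changes were -0.24 (SE 0.18) for ATG4A, 0.04 (SE 0.19) for ATG4C and -0.07 (SE 0.20) for ATG4D, so that of ATG4A was then the furthest from 0 in the family. The ATG4D protein is also regulated by caspase cleavage in human cells, a step that transcript levels do not show.

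Per length, ATG4B made up 43.4% and 45.05% of the summed FPKM of the family in KO, against 46.2% and 46.9% in WT. The summed FPKM was 35.8 and 37.7 in KO, against 40.7 and 40.3 in WT. ATG4C held 17.0% and 14.5% in KO, against 10.1% and 13.0% in WT. ATG4B was thus the most abundant ATG4 transcript in every library, and the order of ATG4A and ATG4D changed between libraries: ATG4A was above ATG4D in KO replicate 1 and WT replicate 2 and below it in KO replicate 2 and WT replicate 1.

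**Figure D2:**
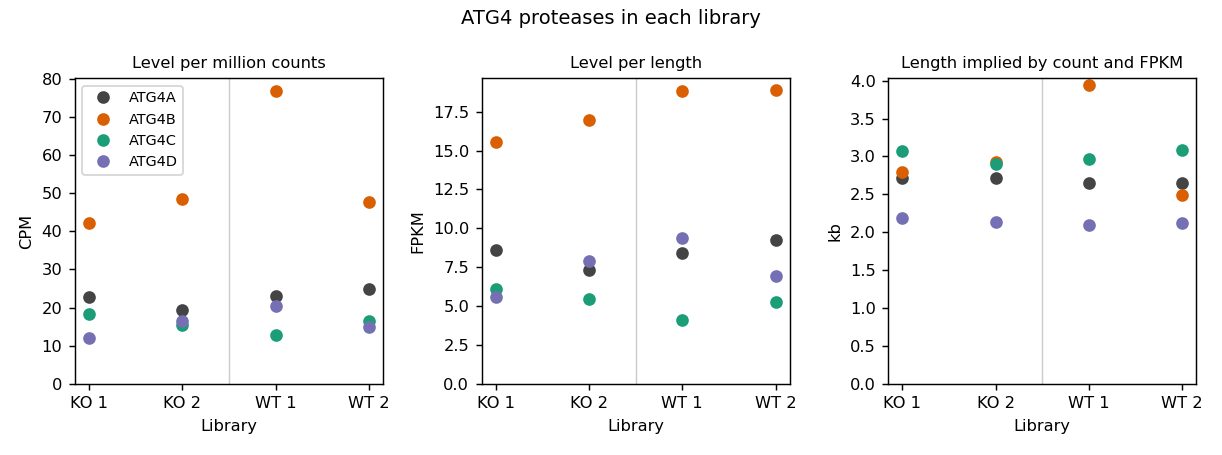
The 4 ATG4 genes in KO 1, KO 2, WT 1 and WT 2 on 3 scales: CPM (left), FPKM (middle) and the length in kb implied by count and FPKM (right). ATG4B in WT 1 is high in CPM (76.9) and in implied length (3.94 kb) but not in FPKM (18.8).

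The ATG8 family, whose lipidated forms mark autophagosomes, split into genes that were even across libraries and genes raised in WT replicate 1. GABARAP was at 159 CPM in both KO libraries, against 182 and 161 CPM in WT (log2 fold change -0.11, SE 0.22). GABARAPL2 was at 77.6 and 70.3 CPM in KO, against 73.4 and 68.0 CPM in WT (log2 fold change 0.06, SE 0.22). These 2 transcripts varied least of the family over the 4 libraries.

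MAP1LC3B, the gene of the LC3B protein used as the standard autophagosome marker, was at 70.0 and 63.5 CPM in KO, against 166 and 74.4 CPM in WT. GABARAPL1, a stress-responsive family member, was at 90.1 and 81.5 CPM in KO, against 171 and 74.3 CPM in WT. MAP1LC3A was at 4.87 and 6.32 CPM in KO, against 13.8 and 5.57 CPM in WT. In all 3 genes WT replicate 1 stood 2.08 to 2.48 times above the mean of the other libraries, and WT replicate 2 lay within or next to the KO values. The log2 fold changes were -0.85 (SE 0.42), -0.51 (SE 0.43) and -0.80 (SE 0.52) for MAP1LC3B, GABARAPL1 and MAP1LC3A, and -0.15 (SE 0.16), 0.21 (SE 0.16) and 0.01 (SE 0.28) without WT replicate 1. The near-identical copy MAP1LC3B2 was at 5.14 and 1.78 CPM in KO, against 6.42 and 4.33 CPM in WT. Reads of MAP1LC3B and MAP1LC3B2 may thus have been divided between them. GABARAPL1 is likewise uncertain to the extent that reads are shared with its processed copies.

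Compared per length, GABARAP was the leading family member, at 170.3 and 171 FPKM in KO and 189 and 166 FPKM in WT. It held 48.5% and 50.3% of the family's summed FPKM in KO, against 41.5% and 51.5% in WT. MAP1LC3B held 11.9% and 12.5% in KO, against 20.7% and 12.3% in WT. The share of LC3B transcripts was thus higher in WT replicate 1 alone.

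**Figure D3:**
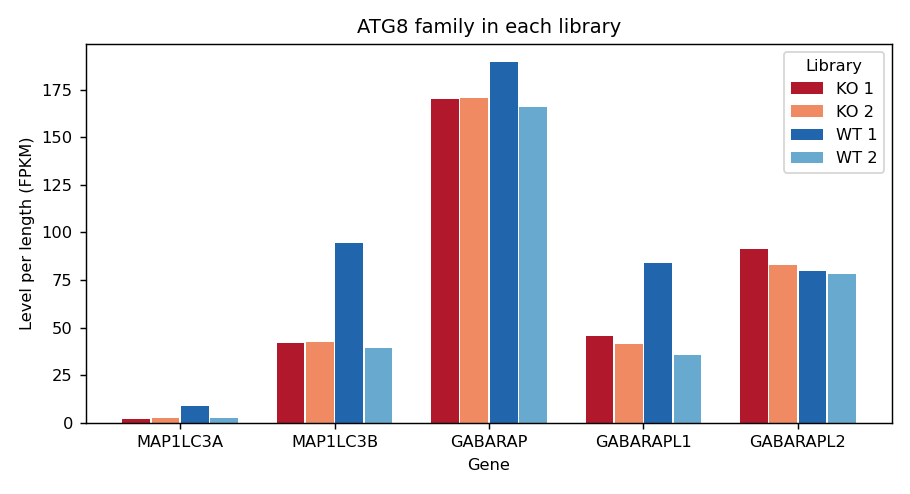
FPKM of the 5 ATG8 family genes, with 1 bar for each of KO 1, KO 2, WT 1 and WT 2. MAP1LC3B (94.4 FPKM) and GABARAPL1 (84.2 FPKM) reach their highest values in WT 1, whereas GABARAP stays between 166 and 189 FPKM.

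Among the initiation genes, ULK1 showed the widest range of all members. This kinase, which starts autophagosome formation and is held back by mTORC1, was at 56.8 and 53.7 CPM in KO, against 257 and 46.8 CPM in WT. WT replicate 1 was 4.90 times the mean of the other libraries, and WT replicate 2 lay below both KO libraries. The log2 fold change was -1.46 (SE 0.78, edgeR adjusted p = 0.834), but 0.24 (SE 0.17, adjusted p = 0.539) without WT replicate 1. Its relative ULK2 was the least abundant member per length, at 1.16 and 1.10 FPKM in KO and 1.63 and 0.93 FPKM in WT.

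ATG13, the adaptor that holds the ULK complex together, behaved differently. It was at 71.7 and 73.1 CPM in KO, against 111 and 98.2 CPM in WT. Both WT libraries were above both KO libraries, and the difference did not rest on WT replicate 1. The log2 fold change was -0.53 (SE 0.22, edgeR adjusted p = 0.834), and -0.44 (SE 0.16, adjusted p = 0.0709) without WT replicate 1. In FPKM it was at 15.3 and 15.7 in KO, against 23.4 and 20.2 in WT. ATG101, which stabilises ATG13, was at 63.7 and 65.2 CPM in KO and at 97.8 and 69.4 CPM in WT. RB1CC1, the scaffold also called FIP200, was at 64.6 and 49.99 CPM in KO and at 75.9 and 63.7 CPM in WT, with overlap.

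The class III PI3-kinase genes pointed in both directions. ATG14, which directs the complex to autophagosome formation, was at 23.7 and 19.4 CPM in KO, against 44.8 and 26.1 CPM in WT (log2 fold change -0.72, SE 0.34). BECN1, the regulatory core subunit Beclin 1, was at 72.9 and 70.4 CPM in KO, against 45.1 and 62.7 CPM in WT (log2 fold change 0.41, SE 0.26). The groups did not overlap for either gene, and WT replicate 2 was the nearer WT library in both. Without WT replicate 1 the values were -0.27 (SE 0.18) for ATG14 and 0.19 (SE 0.17) for BECN1. The catalytic lipid kinase PIK3C3, its partner PIK3R4 and the endosomal subunit UVRAG overlapped between genotypes in CPM. Their log2 fold changes were 0.11, 0.29 and -0.17. In FPKM UVRAG was at 11.02 and 10.31 in KO, against 11.67 and 11.34 in WT, without overlap. WT replicate 1 was the lowest library for BECN1, PIK3C3 and PIK3R4, and the highest for ATG14 and UVRAG.

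WIPI1, a reader of the PI3P lipid on the forming membrane, had the smallest p of all members and was the 1 with an unadjusted p under 0.05. It was at 15.0 and 18.2 CPM in KO, against 47.3 and 28.1 CPM in WT, a log2 fold change of -1.19 (SE 0.34, edgeR adjusted p = 0.834). Both WT libraries lay above both KO libraries. WIPI1 was the 1 member called in the fit without WT replicate 1, with a log2 fold change of -0.76 (SE 0.18, adjusted p = 0.001). With all 4 libraries DESeq2 did not call it (adjusted p = 0.31). In FPKM it was at 3.92 and 6.21 in KO, against 16.5 and 9.12 in WT, so the order was the same although the KO libraries lay further apart on that scale.

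The related reader WIPI2, which recruits the conjugation machinery, was at 82.2 and 83.5 CPM in KO, against 86.4 and 64.9 CPM in WT (log2 fold change 0.13, SE 0.25). ATG9A, the transmembrane lipid scramblase, was at 99.99 and 113 CPM in KO, against 197 and 117 CPM in WT (log2 fold change -0.56, SE 0.32, and -0.13, SE 0.15, without WT replicate 1). Its KO values lay only just below WT replicate 2, and they overlapped with it in FPKM. The lipid transfer genes ATG2A and ATG2B overlapped between genotypes, at -0.30 (SE 0.33) and -0.08 (SE 0.25) in log2 fold change.

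The 6 conjugation enzymes had log2 fold changes from -0.36 to 0.32, with 4 positive and 2 negative, against 2 positive and 4 negative without WT replicate 1. ATG5, which is joined to ATG12 and forms the ligase with ATG16L1, was at 36.7 and 30.0 CPM in KO, against 38.9 and 47.1 CPM in WT (log2 fold change -0.36, SE 0.25). Here WT replicate 2 was the higher WT library, and the value without WT replicate 1 was -0.49 (SE 0.17, edgeR adjusted p = 0.0555). In FPKM the genotypes overlapped, since KO replicate 1 (19.8) exceeded WT replicate 1 (18.1). ATG7, the activating enzyme of both conjugation branches, was at 57.1 and 55.7 CPM in KO, against 38.4 and 52.6 CPM in WT (log2 fold change 0.31, SE 0.26, and 0.10, SE 0.17, without WT replicate 1). ATG10, the transfer enzyme for ATG12, was also above both WT values in both KO libraries, by small amounts (17.7 and 16.7 CPM in KO, 14.6 and 15.6 CPM in WT). The LC3 transfer enzyme ATG3 (log2 fold change 0.32) and ATG16L1 (0.05) overlapped between genotypes, and ATG12 (-0.24) did not.

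The cargo receptors held the member with the highest mean level and the one that varied most after ULK1. SQSTM1, the ubiquitin-binding receptor p62, was at 741 and 829 CPM in KO, against 361 and 870.3 CPM in WT. In WT replicate 1 it lay below LAMP1 (378 CPM). It was the 1 member at least 2-fold lower in WT replicate 1, where the mean of the other libraries was 2.25 times higher, and the KO values lay between the WT values. The log2 fold change was 0.35 (SE 0.45), and -0.15 (SE 0.14) without WT replicate 1.

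BNIP3L, a mitophagy receptor (NIX) that is induced by low oxygen, was at 67.9 and 59.0 CPM in KO, against 251 and 52.2 CPM in WT. WT replicate 1 was 4.21 times the mean of the other libraries. The log2 fold change was -1.26 (SE 0.72), and 0.28 (SE 0.17) without WT replicate 1. The summed level of 13 low-oxygen genes moved in the same library, at 4028 and 3854 CPM in KO, against 12546 and 4522 CPM in WT, and its part in the BNIP3L and ULK1 values was not tested. OPTN, a receptor for damaged mitochondria and bacteria, was at 47.7 and 46.1 CPM in KO, against 99.3 and 58.9 CPM in WT. Both WT libraries were above both KO libraries, with a log2 fold change of -0.76 (SE 0.32), and -0.33 (SE 0.17, edgeR adjusted p = 0.31) without WT replicate 1. NBR1, a receptor that works with p62, was at 167 and 153 CPM in KO and at 176 and 188 CPM in WT (log2 fold change -0.18, SE 0.22).

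The lysosomal membrane proteins LAMP1 and LAMP2 were lower in both KO libraries than in both WT libraries on either scale, without passing the test. LAMP1 was at 248 and 263 CPM in KO, against 378 and 333 CPM in WT, a log2 fold change of -0.48 (SE 0.22, edgeR adjusted p = 0.834). Without WT replicate 1 it was -0.38 (SE 0.14, adjusted p = 0.074). LAMP2, of which 1 isoform serves chaperone-mediated autophagy, was at 99.7 and 91.9 CPM in KO, against 141 and 108 CPM in WT (log2 fold change -0.37, SE 0.25). Without WT replicate 1 its value was -0.17 (SE 0.15). TFEB, the transcription factor that drives lysosomal and autophagy genes, was at 20.5 and 26.4 CPM in KO, against 19.1 and 30.0 CPM in WT, with overlap.

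Across roles, 8 members lay below both WT libraries in both KO libraries on the CPM and the FPKM scale (21.6%, against 13.4% of all tested genes): ATG13, ATG101, ATG14, WIPI1, ATG12, OPTN, LAMP1 and LAMP2. BECN1, ATG7 and ATG10 lay above on both scales (8.11%, against 16.2%). Of the 8, the fitted difference without WT replicate 1 was at least 0.38 in size for WIPI1, ATG13 and LAMP1, and only WIPI1 passed.

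**Figure D4:**
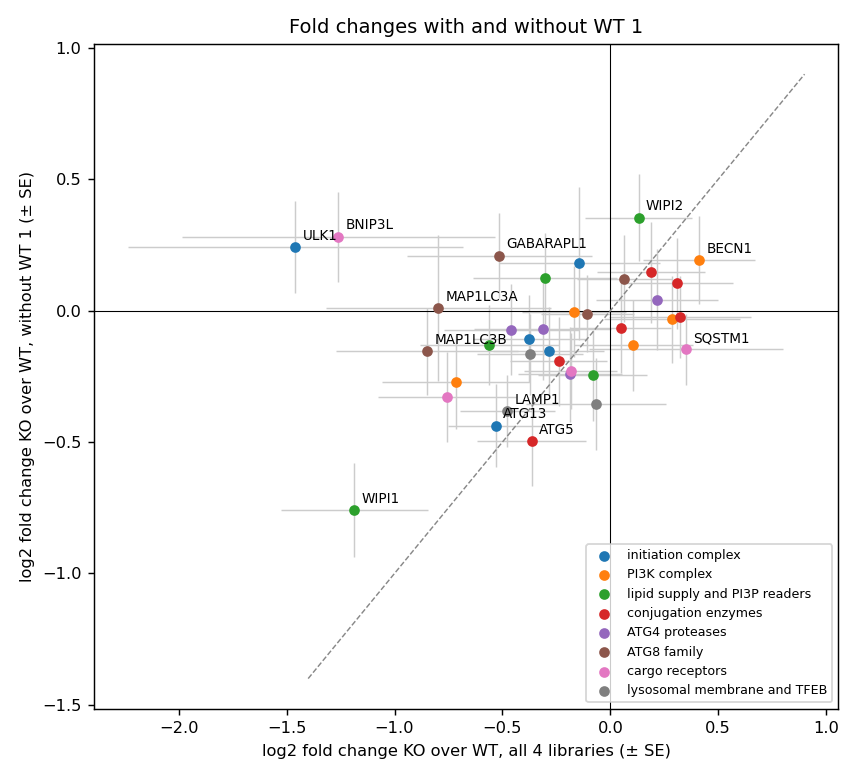
Fitted log2 fold change of KO over WT with all 4 libraries (x axis) and without WT 1 (y axis) for the 37 genes, with bars of ± 1 SE and colours by role; the dashed line marks equal values. ULK1 and BNIP3L move from -1.46 and -1.26 to 0.24 and 0.28, while WIPI1 stays below 0 at -1.19 and -0.76.

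In level per length the members spanned a wide range. SQSTM1 was first, with a mean of 275 ± 18.3 FPKM in KO and 202 ± 137 FPKM in WT (SD, n = 2 each). GABARAP followed with 171 FPKM in KO and 178 FPKM in WT, and LAMP1 with 113 FPKM in KO and 155 FPKM in WT. The lowest were MAP1LC3A (2.32 FPKM in KO, 5.81 FPKM in WT), ATG2B (3.78 FPKM in KO, 3.74 FPKM in WT) and ULK2 (1.13 FPKM in KO, 1.28 FPKM in WT). Of the 36 neighbouring pairs in the order of mean FPKM, 3 had ranges over the 4 libraries that did not overlap: GABARAP above LAMP1, LAMP1 above GABARAPL2, and ATG2B above ULK2.

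Genes next to the core machinery were examined as 7 lists with 120 entries, all found in the table. With all 4 libraries edgeR called 0 members of any of them, and the same was true of DESeq2. The list of 26 lysosomal hydrolases, pump subunits and membrane genes was lower in KO for 23 members, with a median log2 fold change of -0.28 beside -0.01 for all tested genes, and for 20 members with a median of -0.14 without WT replicate 1. Prosaposin (PSAP), the precursor of sphingolipid activator proteins, was at 1015 and 1069 CPM in KO, against 2382 and 1198 CPM in WT. The cathepsin gene CTSB was at 28.5 and 32.1 CPM in KO, against 208 and 23.2 CPM in WT, so WT replicate 1 alone was high.

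Without WT replicate 1, edgeR called 2 lysosomal genes lower, against 3.93% of all genes called lower. NPC1, the lysosomal cholesterol exporter, was at 82.4 and 80.8 CPM in KO, against 95.4 and 123 CPM in WT, and fell by 0.59 (SE 0.15, adjusted p = 0.00343). ATP6V0E1, a subunit of the proton pump, was at 103 and 99.3 CPM in KO, against 97.1 and 156 CPM in WT, and fell by 0.63 (SE 0.15, adjusted p = 0.000907). For ATP6V0E1 the WT libraries lay on either side of KO, so the call rests on WT replicate 2.

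Regulators of mTORC1 and AMPK were balanced, with 13 higher and 15 lower of 28 tested and a median log2 fold change of -0.01. RRAGC, a Rag GTPase that brings mTORC1 to the lysosome, was at 18.55 and 19.5 CPM in KO, against 24.4 and 37.8 CPM in WT. Both WT libraries were above both KO libraries. With WT replicate 1 left out RRAGC fell by 0.99 (SE 0.17, edgeR adjusted p = 1.28e-06), and its value was -0.71 (SE 0.30, adjusted p = 0.834) in all 4 libraries. It was the 1 call among the 28 genes, where 6.46% of all genes were called. EIF4EBP1, the translation repressor controlled by mTORC1, was at 46.0 and 54.4 CPM in KO, against 146 and 64.8 CPM in WT. The kinase STK11, which activates AMPK, was at 2.78 and 3.03 CPM in KO, against 7.75 and 3.62 CPM in WT.

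Among 7 transcription factors of autophagy genes, 6 were lower and 1 higher, with a median of -0.15, but 4 were lower and 3 higher, with a median of -0.03, without WT replicate 1. In that fit 1 of the 7 was called, against 6.46% of all genes. MITF, a relative of TFEB, was at 50.05 and 42.5 CPM in KO, against 31.0 and 79.5 CPM in WT, and was called lower without WT replicate 1 (log2 fold change -0.78, SE 0.17, edgeR adjusted p = 0.000166) although both KO values lay between the WT values. FOXO3 was at 27.8 and 27.1 CPM in KO, against 48.1 and 30.4 CPM in WT. The values of ZKSCAN3, a repressor of autophagy genes, and of the stress factor DDIT3 were 0.30 (SE 0.39) and -0.20 (SE 0.37).

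The 20 further selective autophagy genes had 9 higher and 11 lower members and a median of -0.03. BNIP3, the mitophagy receptor related to BNIP3L and also induced by low oxygen, was at 71.2 and 65.7 CPM in KO, against 292 and 90.4 CPM in WT (log2 fold change -1.48, SE 0.57, edgeR adjusted p = 0.834), and its value was -0.40 (SE 0.16) without WT replicate 1. CCPG1, a receptor for the endoplasmic reticulum, was at 75.0 and 61.2 CPM in KO, against 143 and 87.7 CPM in WT. NCOA4, the receptor for ferritin, was at 118 and 113 CPM in KO, against 153 and 156 CPM in WT. The WT libraries agreed closely for NCOA4, which fell by 0.43 (SE 0.15, edgeR adjusted p = 0.0487) when WT replicate 1 was left out and had a log2 fold change of -0.42 (SE 0.21, adjusted p = 0.834) in all 4 libraries. It was the 1 call among the 20 genes in the fit without WT replicate 1, which called 6.46% of all genes.

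Of 14 fusion genes, 11 were higher and 3 lower in KO (median log2 fold change 0.14), against 8 higher and 6 lower (median 0.048) without WT replicate 1, and none was called in either fit. VPS41, a subunit of the HOPS tethering complex, was at 77.3 and 70.7 CPM in KO, against 31.7 and 71.7 CPM in WT. Another HOPS subunit, VPS33A, was at 61.9 and 61.1 CPM in KO, against 27.1 and 63.5 CPM in WT. In both, WT replicate 1 alone was low. TECPR1, which binds autophagosomes and lysosomes, had a value of 0.27 (SE 0.28). Of the 10 tested further autophagosome genes 8 were lower (median -0.26). The direction turned without WT replicate 1, with 3 lower and 7 higher (median 0.19). WDR45, a relative of the WIPI proteins, was at 52.7 and 60.4 CPM in KO, against 100.4 and 60.6 CPM in WT. Its paralogue WDR45B was at 28.5 and 15.0 CPM in KO, against 149 and 9.24 CPM in WT. WDR45B was called higher in KO by edgeR without WT replicate 1 (log2 fold change 1.23, SE 0.23) but had a value of -1.86 (SE 1.204) with it. ATG16L2 was at 12.4 and 14.2 CPM in KO, against 71.0 and 11.03 CPM in WT.

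The 13 low-oxygen genes were all lower in KO with all 4 libraries (median log2 fold change -1.48), and 8 of them were higher without WT replicate 1 (median 0.07). PGK1, a glycolytic kinase, was at 855 and 834 CPM in KO, against 3445 and 1287 CPM in WT, and NDRG1 at 179 and 198 CPM in KO, against 3976 and 166 CPM in WT. The fit without WT replicate 1 called 3 of the 13, where it called 6.46% of all genes. These were PGK1 lower (-0.61, SE 0.13) and CA9 and ERO1A higher (0.51, SE 0.17, and 0.53, SE 0.16).

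**Figure D5:**
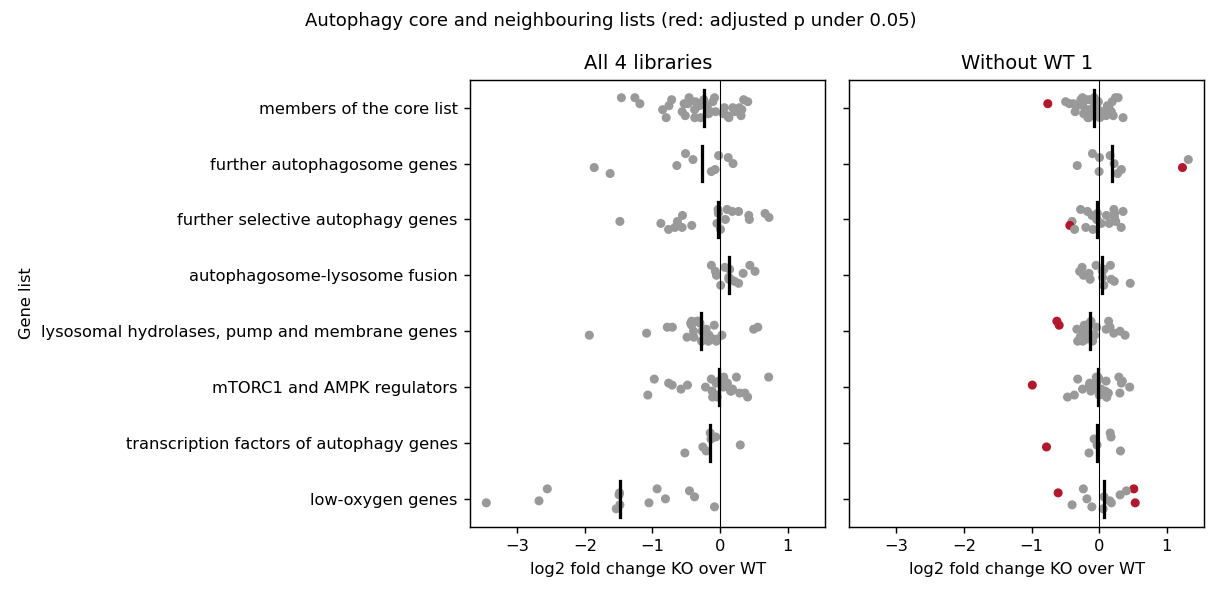
Fitted log2 fold change of KO over WT for the 37 autophagy genes and 7 neighbouring lists, with all 4 libraries (left) and without WT 1 (right); each point is a gene, red where the edgeR adjusted p is under 0.05, and the black bar is the list median. The median of low-oxygen genes is -1.48 on the left and 0.07 on the right, and that of the lysosomal list is -0.28 and -0.14.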

How the data were processed

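RNA was sequenced from 4 libraries, 2 KO and 2 WT, grouped and numbered by their labels. The deposited table gives an estimated count per gene and library, and a second value that its header does not name; these deposited values were taken to be FPKM, since their sums (441772 to 452971) differ between libraries. HISAT2, Cufflinks, RSEM and build GRCm38.p5 are named, per the submitters' processing notes, without versions or roles; for strand, annotation and filters the sources used here name nothing. No coordinates or sequences are given, since a human annotation was not used here.

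Estimated counts were rounded to whole numbers, scaled by TMM (factors 0.966 to 1.026), filtered by filterByExpr and fitted in R 4.3.3 with edgeR 4.0.16 (robust quasi-likelihood test), with genotype as the only term. Calls had a Benjamini-Hochberg adjusted p under 0.05 over all genes tested, except that DESeq2 gave some tested genes no adjusted p. The SE of an edgeR value is its size over the square root of F. CPM values use TMM-scaled totals, and totals set the precision of each value. Alternatives were RLE and upper-quartile scaling, other filters, DESeq2 1.42.0, limma 3.58.1 (voom, and trend on log2(FPKM + 1) or log2(FPKM + 0.1)), each library left out, and the replicate number as a block. A fit without 1 library assumes that the lone sample varies like the other genotype. The fits were tested on simulated data with the same small spread in every library. No simulated library stood apart as WT replicate 1 does, so that test does not show what the fits can find here. With 2 libraries a genotype, an exact permutation test cannot reach 0.05 and was not used. The 37 members and the 7 lists were chosen with earlier results of these data known. Values in every library are given for the ATG4 and ATG8 families and BNIP3L, for the 2 members of every other role with the smallest p, for members called, and for up to 3 genes of each list by p; other values were chosen after they were seen. One gene that this rule names is not reported here. The marker genes MUC6 and CD3E were not analysed here.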

Additional observations from a re-analysis of the deposited data

How the results depend on the processing

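No member of the autophagy set was called under RLE or upper-quartile scaling, the other filters, DESeq2, limma-voom, the FPKM fits, the replicate block or without a KO library; the exceptions were the fits without a WT library. The count of called members ranged from 0 to 24 when 1 library was left out, with 0 to 7 higher and 0 to 17 lower, and the median log2 fold change from -0.29 to -0.07. Over all genes the leave-one-out counts ranged from 0 to 8702, with 0 to 4271 higher and 0 to 4431 lower; DESeq2 called 39, 6 higher and 33 lower. In the lists the same ranges were 0 to 4 for further autophagosome genes, 0 to 13 for selective autophagy genes, 0 to 5 for fusion genes, 0 to 15 for lysosomal genes, 0 to 13 for mTORC1 and AMPK regulators, 0 to 5 for transcription factors and 0 to 12 for low-oxygen genes. The upper end of each list range came from the fit without WT replicate 2, which called 51.3% of all genes. In that fit the lists, in the same order, had 10, 20, 14, 26, 29, 7 and 13 tested genes. The replicate number as a block gave 10 calls, 5 higher and 5 lower, with none among members. Deviations of same-numbered libraries correlated at -0.255 across 11959 genes. With WT replicate 1 apart from the others, this value cannot tell whether same-numbered libraries share more than a number. With the numbers crossed, an alternative chosen after seeing the data, 4 genes were called, 1 higher and 3 lower. The cause of these changes was not tested.

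Signs turned when a library was left out, with the lowest and highest value over these fits, for ULK1 (-2.19 to 0.24), ULK2 (-0.38 to 0.18), PIK3C3 (-0.13 to 0.42), PIK3R4 (-0.033 to 0.72), ATG2A (-0.61 to 0.12), ATG2B (-0.25 to 0.13), WIPI2 (-0.036 to 0.35), ATG3 (-0.025 to 0.81), ATG16L1 (-0.064 to 0.19), MAP1LC3A (-1.28 to 0.0095), GABARAPL1 (-0.97 to 0.21), SQSTM1 (-0.15 to 1.14), BNIP3L (-1.96 to 0.28) and TFEB (-0.35 to 0.32). Among the list genes named here they turned for ATG16L2 (-2.39 to 0.27), WDR45B (-2.75 to 1.23), VPS33A (-0.045 to 1.204), CTSB (-2.76 to 0.38), ZKSCAN3 (-0.031 to 0.75), DDIT3 (-0.56 to 0.32), NDRG1 (-4.38 to 0.18), ATP6V0E1 (-0.63 to 0.081), MITF (-0.78 to 0.60), CA9 (-3.44 to 0.51) and ERO1A (-1.76 to 0.53). On the FPKM scale ATG2B turned to 0.034 with a pseudocount of 1, filtered or not, and to 0.049 with 0.1; no other named gene turned under a scaling, filter, tool or block.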
